A study of Mus musculus with 2 samples.

Results

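The genes of the mitochondrial respiratory chain were compared between lenses of Msx2 conditional knockout (CKO) and wild-type mice. Members were chosen by gene name alone: every name on the array that begins with Ndufa, Ndufb, Ndufc, Ndufs, Ndufv, Uqcr, Cox4, Cox5, Cox6, Cox7, Cox8 or Atp5, together with Sdha, Sdhb, Sdhc, Sdhd and Cyc1. This rule took 93 of the 27376 gene names on the array, with 135 probes. Of the 93 genes, 83 encode or are named for subunits of the 5 complexes, and 10 are not subunits: 7 assembly factors named Ndufaf, the genes Atp5s and Atp5sl, and the pseudogene Atp5c1-ps.

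Both samples were lens RNA at postnatal day 1, each on 1 single-colour oligonucleotide array. In the sample labelled Lens Le-Cre Msx2 CKO, the homeobox transcription factor Msx2 was deleted by Le-Cre, a Cre line active in the developing lens. The comparison group is labelled Msx2 WT, and whether it carried Le-Cre and how many animals gave each RNA are not given in the sources used here. With 1 array per genotype no difference below has a replicate check and no p-value is given, and in whole lenses a smaller number of cells of a type and less RNA per cell cannot be told apart.

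Respiratory complexes sit in the inner mitochondrial membrane. Complex I takes electrons from NADH and complex II from succinate, both pass them through ubiquinone to complex III, and cytochrome c carries them on to complex IV, which reduces oxygen. Complexes I, III and IV pump protons, and complex V, the ATP synthase, uses the proton gradient to make ATP. Most subunits are encoded in the nucleus and a few in mitochondrial DNA. In the lens, mitochondria are kept in the epithelium and the outer, young fibre cells and are cleared from maturing fibres, which then live mainly on glycolysis.

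A spot's signal was divided by the 75th percentile of its array (203 intensity units for CKO, 201 for wild type), and this ratio is called the scaled signal. A gene was measured when both arrays gave a probe of it an unsaturated signal well above background, and it took the value of its brightest such probe. A difference is log2 CKO minus log2 wild type, so a negative value means lower in the CKO lens. Among all 14232 measured genes the median difference was -0.12, 55.1% of probes were well above background in CKO and 54.2% in wild type, and both arrays came from the same slide and scan. Msx2 itself gave 371 intensity units in wild type and 4.40 in CKO, not well above background there, so it was at least 22.6-fold lower in CKO. All 10 lens markers examined, crystallins and fibre membrane genes among them, were well above background on both arrays, and 8 of the 10 were lower in CKO, with a median difference of -0.24 and summed scaled signals of 5408 in CKO and 6450 in wild type. After subtraction of the running median over genes of like signal, the median of the lens markers was 0.09. The part of the lens marker difference in the values of the respiratory chain genes was not tested.

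Of the 93 respiratory chain genes 89 were measured. Their differences had a median of -0.25, which is 1.19-fold lower in CKO, with the middle part of the distribution between -0.40 and -0.07. A total of 75 of the 89 lay below 0, against 60.7% of all measured genes, and 80 lay within 1.5-fold of wild type. Only 2 genes, Cox6a2 and Cox6b2, were at least 2-fold higher in CKO, where 4.11% of all measured genes were, and 0 were at least 2-fold lower, where 3.99% of all measured genes were. At a threshold of 1.5-fold, 7 members were lower (14.7% of all measured genes) and the same 2 were higher (9.36% of all measured genes). The 7 became 1 with quantile normalization, where 1817 of all 14232 measured genes were that much lower. It was also 1 with the deposited table (1851 of 14232) and with the running median over genes of like signal subtracted (1506 of 14232). With each array scaled to its median it was 16, where 2978 of all 14232 measured genes were. The differences of the 89 members had an SD of 0.36, and of 0.23 over the 87 without Cox6a2 and Cox6b2, against 0.60 for all measured genes.

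**Figure D1:**
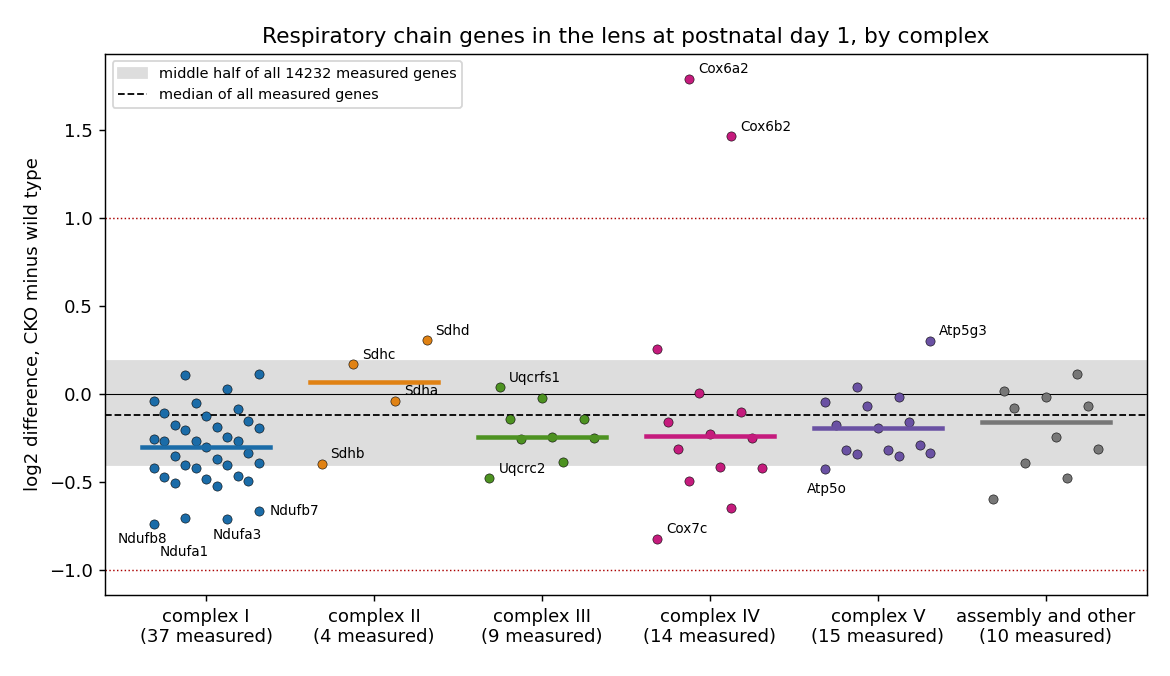
Log2 difference (CKO minus wild type, vertical axis) of each of the 89 measured genes, by complex, 1 array per genotype; each point is a gene, coloured bars are medians, the grey band spans the middle 50% of all measured genes, the dashed line is their median of -0.12, and dotted lines mark 2-fold. Most genes lie between 0 and -0.5 and only Cox6a2 (1.79) and Cox6b2 (1.46) pass 2-fold, whereas with quantile normalization the medians of complexes III, IV and V lie above 0 (0.06, 0.04 and 0.05).

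The low median of the members went with the brightness of their probes. Members had a median signal percentile of 95.7 among all measured genes, and 64 of the 89 lay above the 90th percentile. Genes that bright were lower in CKO in general: 76.6% of all genes above the 90th percentile lay below 0, and the 1360 of them that are no members had a median difference of -0.24, against -0.30 for the 64 members there. The SD of the difference among genes that bright was 0.40 for those that are no members and 0.22 for the members. When the running median over genes of like signal was subtracted, 46 of the 89 members lay below it, against 49.8% of all measured genes, and the members' median became -0.0035. With quantile normalization 45 of the 89 lay below 0, against 54.6% of all measured genes. The direction of single members also turned on the scale. Over 6 ways of scaling (the 75th percentile, the array median, quantile normalization, the running median, the deposited log2 table and normexp background correction), 42 members were below 0 under every one (48.7% of all measured genes were) and 6 above 0 under every one (28.8%), while for 41 the sign depended on the scale. The 6 above 0 under all 6 scalings were Cox6a2, Cox6b2, Cox7a2l, Sdhc, Sdhd and Atp5g3. The 6 scalings are not independent, because both columns of the deposited table hold the same distribution, as after quantile normalization.

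**Figure D2:**
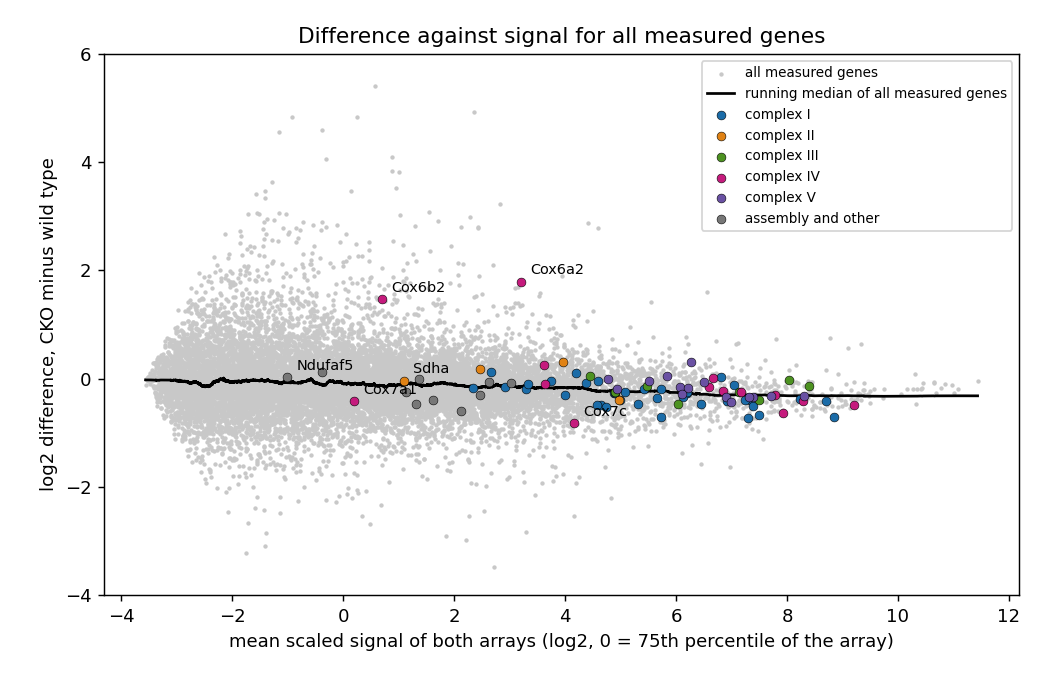
Log2 difference (CKO minus wild type) against the mean log2 scaled signal of both arrays, 1 point per gene; grey points are all 14232 measured genes, coloured points the 89 measured members, and the black line is the running median over genes of like signal. The line falls from near 0 for dim genes to about -0.3 for bright genes, and most members follow it, while Cox6a2 and Cox6b2 stand well above it.

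Complex I, the NADH dehydrogenase, had all 37 of its named genes measured, with a median difference of -0.30 and a range from -0.73 to 0.11. A total of 34 lay below 0, against 60.7% of all measured genes and 76.6% of those above the 90th signal percentile. Under all 6 scalings 23 of the 37 stayed below 0, against 48.7% of all measured genes. The median, however, was -0.06 with quantile normalization and also -0.06 with the running median subtracted. Ndufb8, an accessory subunit of the membrane arm, had a scaled signal of 203 in wild type and 122 in CKO, a difference of -0.73 that ranged from -0.86 to -0.40 over the scalings. Ndufa1, a small membrane-arm subunit encoded on chromosome X, gave 591 in wild type and 363 in CKO, 1.63-fold lower. For Ndufa3 the scaled signal was 68.0 in wild type and 41.6 in CKO, and for Ndufb7 it was 226 and 143. These 4 genes, all for accessory subunits, were the members of complex I at least 1.5-fold lower in CKO, where 14.7% of all measured genes were. The count was 0 with quantile normalization, the running median subtracted or the deposited table. Among all 14232 measured genes it was 1817, 1506 and 1851 in the same order. Median scaling gave 10 in complex I and 2978 among all measured genes.

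The catalytic core of complex I stood nearer to wild type than its accessory subunits, a grouping by textbook role that was made after the values were seen. The 7 core genes encoded in the nucleus had a median of -0.15 and the 30 accessory genes a median of -0.38. The core genes were also dimmer, with a median signal percentile of 89.9 against 96.7, and after subtraction of the running median the medians were 0.00 and -0.08. Among the core genes, Ndufv1, which binds NADH and the flavin cofactor, gave 24.5 in wild type and 23.6 in CKO. Ndufs1, the large iron-sulfur subunit of the electron input module, gave 17.6 and 14.3. Ndufs7, which lines the ubiquinone site, was the lowest of the core set, with a difference of -0.35. Ndufs3, Ndufs8 and Ndufv2 were at -0.27, -0.15 and -0.11. Of the accessory genes 2 lay above 0, Ndufa9 (0.11) and Ndufb11 (0.03), and both signs were lost with median scaling. Ndufa13, the other of the 2 brightest genes of complex I beside Ndufa1, gave 482 in wild type and 360 in CKO, a difference of -0.42.

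Ndufs6, an accessory subunit of the electron input module, was read by 3 overlapping probes and is one of the members whose probes agreed most closely. The probes share 33 bases, shown here in capitals, and lie on the minus strand of chromosome 13 (mm9, per the file), from 73457790 to 73457849, from 73457796 to 73457855, and from 73457817 to 73464875, the last spanning 7059 bases of the genome and so crossing at least 1 intron.
A_52_P685828: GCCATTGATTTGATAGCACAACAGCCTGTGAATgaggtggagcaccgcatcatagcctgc
A_51_P375034: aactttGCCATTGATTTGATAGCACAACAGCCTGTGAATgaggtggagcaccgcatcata
A_51_P335077: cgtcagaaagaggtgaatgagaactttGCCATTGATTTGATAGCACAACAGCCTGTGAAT
Each probe was read from 1 spot per array, as were all probes of the members. In the order printed, their signals were 9355, 9128 and 4942 intensity units in wild type and 6822, 6636 and 3578 in CKO. The differences were -0.47, -0.47 and -0.48. The 3 probes thus gave nearly one value, which is a technical repeat within the same 2 RNA samples and no measure of the spread between mice. The probe of Ndufb8, the gene of complex I with the lowest difference, also crosses at least 1 intron, running on the minus strand from 44624855 to 44627199 of chromosome 19 (mm9). A second, dim probe of Ndufb8 was not measured (31.6 intensity units against 16.3 in wild type).
A_51_P247873: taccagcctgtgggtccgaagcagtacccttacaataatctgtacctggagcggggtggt

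Over the 24 members with more than 1 measured probe (56 probes), the SD of the difference between probes of a gene was 0.17, against 0.36 over 4844 genes of the whole array. For probes above 8 times the 75th percentile it was 0.085 over 13 members and 0.19 over 338 genes. In 21 of the 24 all probes lay on the same side of 0. The other 3 were Ndufb2 (-0.34 and a dim probe at 0.18), Ndufc1 (-0.39, -0.39 and a dim probe at 0.05) and Atp5b, the catalytic beta subunit of complex V, whose 4 probes ran from -0.36 to 0.01, the 2 bright ones among them at -0.32 and 0.01. Ndufa3, named above, is also less settled: its second, dimmer probe gave -0.22. Both probes of Ndufa1 were low, at -0.70 and -0.85. Ndufab1, the mitochondrial acyl carrier protein held in complex I, had 4 measured probes from -0.96 to -0.41, all below 0.

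**Figure D3:**
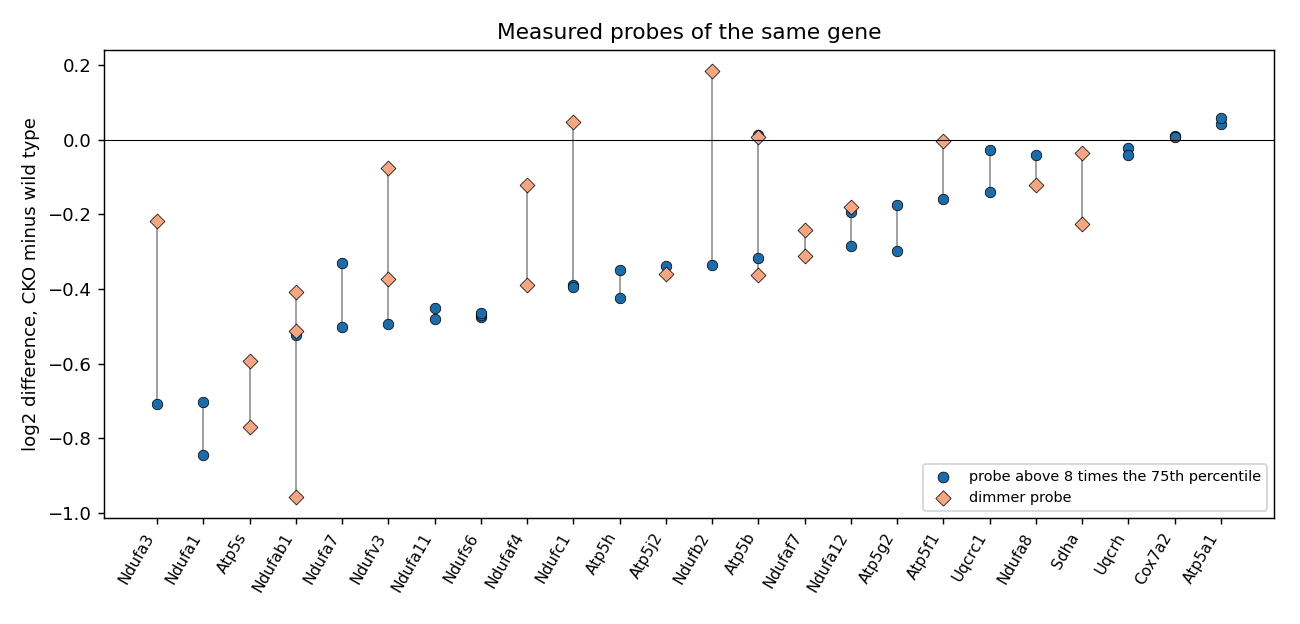
Log2 difference (CKO minus wild type, vertical axis) of every measured probe of the 24 members with more than 1, ordered by the brightest probe; circles are probes above 8 times the 75th percentile, diamonds dimmer probes, and lines join probes of a gene. The 3 probes of Ndufs6 lie between -0.48 and -0.47, the 2 bright probes of Atp5b lie apart at -0.32 and 0.01, and a dim probe each of Ndufab1 (-0.96), Ndufb2 (0.18) and Ndufc1 (0.05) lies apart from the bright ones.

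Complex II, succinate dehydrogenase, which also works in the citric acid cycle, had all 4 genes measured and a median of 0.07, which became -0.06 when each array was scaled to its median. Sdhb, the iron-sulfur subunit, gave 35.8 in wild type and 27.3 in CKO, a difference of -0.39. Sdha, the flavoprotein, was close to equal by its brightest probe, at 2.16 and 2.11, and its sign depended on the scale. Another measured probe of Sdha, at 383 intensity units in wild type and 330 in CKO, gave a difference of -0.22. A dim probe of Sdha was well above background in wild type alone (41.4 intensity units against 21.0 in CKO). The membrane anchors were the high members. Sdhc gave 5.23 in wild type and 5.89 in CKO (0.17), and Sdhd 14.0 and 17.3 (0.31), and both stayed above 0 under all 6 scalings while Sdhb stayed below. The genes of this complex therefore differed in both directions, and their median lay 0.18 above that of all measured genes, whereas those of the other 4 complexes lay below it on the 75th percentile scale, and with quantile normalization complexes III, IV and V above it. With 4 genes and 1 array per genotype, whether complex II differs from the others was not tested.

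Complex III, the cytochrome bc1 complex, had 9 measured genes with a median of -0.25, which rose to 0.06 with quantile normalization and 0.05 with the running median subtracted. Uqcrc2, a core subunit, was lowest, at 77.5 in wild type and 55.6 in CKO (-0.48), and the other core gene Uqcrc1 gave 46.9 and 42.6 (-0.14). Uqcr10, a small subunit, gave 207 and 158 (-0.39). Uqcrc2 and Uqcr10 were the 2 genes of the complex below 0 under all 6 scalings. Uqcrfs1, the Rieske iron-sulfur protein, gave 21.5 in wild type and 22.1 in CKO, and Cyc1, cytochrome c1, gave 32.5 and 27.4. Both carry electrons to cytochrome c, and their differences of 0.04 and -0.25 lie on either side of the median of all measured genes. Uqcrh, the hinge protein, was nearly equal by both its probes on the 75th percentile scale (-0.02 and -0.04), but ranged from -0.15 to 0.29 over the scalings. Uqcrq gave 353 in wild type and 319 in CKO (-0.14). Uqcrb and Uqcr11 lay at -0.25 and -0.26.

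Complex IV, cytochrome c oxidase, held both the highest and the lowest member. Of its 18 genes 14 were measured, with a median of -0.24 that turned to 0.04 with quantile normalization and 0.06 with the running median subtracted. Cox7c, a small subunit with 1 probe, gave 23.7 in wild type and 13.4 in CKO, a difference of -0.82 (1.77-fold lower) that ranged from -0.94 to -0.65 over the scalings. Cox5b, which binds zinc on the matrix side, gave 305 and 195 (-0.64, 1.56-fold lower). Cox7c and Cox5b were the members of complex IV at least 1.5-fold lower, where 14.7% of all measured genes were. Cox5b was not with quantile normalization (-0.37), the running median subtracted (-0.33) or the deposited table (-0.36). Median scaling gave 3 such genes in complex IV and 2978 among all 14232 measured genes. Cox4i1 and Cox5a, both required early in assembly, were at -0.41 and -0.25, and Cox6c and Cox7b at -0.16 and -0.23. Ndufa4, counted here with complex I by its name but now assigned to complex IV, was at -0.19, and Ndufa4l2, its paralogue, was not analysed here. Under all 6 scalings 5 genes of the complex stayed below 0 and 3 above, against 48.7% and 28.8% of all measured genes.

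Several subunits of complex IV exist in a widely expressed form and a form of muscle, testis or lung, each from its own gene. The pair Cox6a1 and Cox6a2 differed in opposite directions. Cox6a1, the common form, gave 699 in wild type and 497 in CKO (-0.49). Cox6a2, the form of heart and skeletal muscle, gave 4.98 in wild type and 17.2 in CKO, 3.46-fold higher, with a difference of 1.79 that ranged from 1.67 to 1.96 over the scalings. The pair Cox6b1 and Cox6b2 did likewise on the 75th percentile scale. With quantile normalization, the running median subtracted or the deposited table, however, both genes of this pair lay above 0. Cox6b1 gave 12.9 in wild type and 12 in CKO (-0.10, with a sign that depended on the scale), while Cox6b2, the testis form, gave 0.980 and 2.70, 2.76-fold higher, with a difference of 1.46 (1.21 to 1.60). Each of these 4 genes was read by 1 probe, so no second probe bears on either difference. Their probes are shown as the first 30 of 60 bases, because a probe that also caught the other form would blur the pair. The longest run of bases that the 2 whole probes of a pair share is 4 for Cox6a and 6 for Cox6b. This compares probe with probe, so it cannot show whether a probe also catches the other form. A match of a probe to the rest of the other form's RNA was not analysed here.
Cox6a1: ggaccacgaaaaccctttggatgctaagct
Cox6a2: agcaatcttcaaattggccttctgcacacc
Cox6b1: aggagtcaggatggctgaagacatcaagac
Cox6b2: ggaactttcccgggcaaaatatgaccttgc
The Cox6a1 probe lies on chromosome 5 from 115795726 to 115795785, the Cox6a2 probe on chromosome 7 from 135349160 to 135349219, the Cox6b1 probe on chromosome 7 from 31409575 to 31411071 and the Cox6b2 probe on chromosome 7 from 4703488 to 4703547, all on the minus strand (mm9, per the file). Whether a probe lies in coding or untranslated sequence was not analysed here.

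The other tissue forms did not all share this pattern. Cox7a1, also a form of heart and muscle, gave 1.32 in wild type and 0.989 in CKO, a difference of -0.42 that stayed below 0 under all 6 scalings. Its common partner Cox7a2 was nearly equal by both probes on the 75th percentile scale (0.01 and 0.01), but ranged from -0.11 to 0.31 over the scalings. Cox7a2l, a related protein that joins complexes III and IV into supercomplexes, gave 11.2 in wild type and 13.4 in CKO (0.26). Cox8b, another muscle form, was well above background in CKO alone, with 28.9 intensity units against 11.1, which makes it at least 1.74-fold higher, and its common partner Cox8a was at -0.31. Cox7b2, a testis form, was also well above background in CKO alone, at 29.7 against 20.9 intensity units, at least 1.41-fold higher. Of all gene names on the array 3.91% were well above background in CKO alone. Cox4i2, the lung form, and Cox8c, another testis form, were not well above background on either array (3.37 in CKO and 3.43 in wild type, and 4.23 and 4.66 intensity units).

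**Figure D4:**
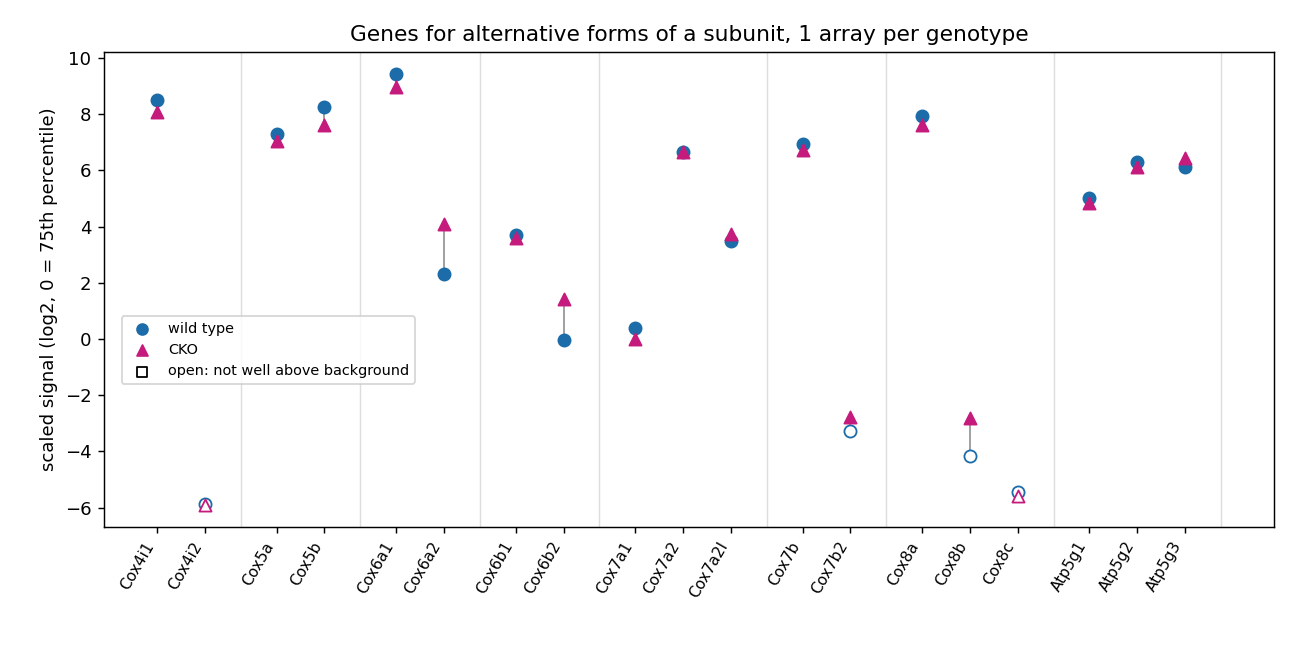
Log2 scaled signal (vertical axis, 0 is the 75th percentile of the array) of genes for alternative forms of a subunit; circles are wild type, triangles CKO, 1 array each, open symbols are not well above background, and a line joins the 2 values of a gene. Cox6a2 (17.2 against 4.98 before log2) and Cox6b2 (2.70 against 0.980) are higher in CKO while Cox6a1 is lower; heights of different probes cannot be compared with each other.

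Markers of tissues that use the muscle forms were read beside these genes. Of 10 skeletal muscle markers, 6 were well above background in CKO and 5 in wild type, and Ckm, Myh3, Myh8 and Tnnt3 were not above background on either array. The summed scaled signal of the 10 was 7.72 in CKO and 17.4 in wild type. Actn2 made up most of that sum and was lower in CKO (-1.42), and without it the sum was 1.47 in CKO and 0.773 in wild type. The other 4 of the 5 measured markers were above 0, Acta1, skeletal actin, highest (1.37), with a median of 0.62 over the 5, and Myl1 was well above background in CKO alone, at least 1.92-fold higher. Of 5 heart and slow muscle markers 4 were above background on both arrays with sums of 1.66 in CKO and 1.73 in wild type, and Tnnc1 was not. These near sums hold differences in both directions: 3 of the 4 lay below 0 and 1 above, from Myl2 (-1.34) to Actc1 (1.04), with a median of -0.56. Brown fat markers were above background in 2 of 4 cases in CKO and 0 in wild type (sums 0.975 and 0.144), with Ucp1 and Cidea at background. Genes of macrophages (9 of 9 above background in CKO and 5 in wild type, sums 26.1 and 4.20), vessels (8 and 7 of 8, sums 25.5 and 8.16), pericytes (5 and 4 of 5, sums 10.1 and 5.83) and pigment cells (4 and 2 of 5, sums 2.13 and 0.419) had higher sums in CKO. Not every gene of these lists was higher: 4 of 5 measured macrophage genes and 3 of 4 measured pericyte genes lay above 0. The others were C1qb (-0.02) and Pdgfrb (-0.28). Rgs5 alone gave 6.43 of the pericyte sum in CKO and 2.66 in wild type. The part of these tissues and cell types in the values of Cox6a2, Cox6b2, Cox7b2 and Cox8b was not tested.

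Complex V, the ATP synthase, had 15 measured genes with a median of -0.19, which turned to 0.05 with quantile normalization and 0.04 with the running median subtracted. None was 1.5-fold apart in either direction. The 5 genes of the F1 part, the catalytic head with its central stalk, had a median of -0.07. The 10 of the outer stalk and membrane part had a median of -0.24, again a textbook grouping made after the values were seen. With the running median subtracted the medians were 0.22 and 0.01. Atp5b gave 354 in wild type and 284 in CKO by its brightest probe (-0.32), whereas Atp5a1, the alpha subunit it alternates with in the head, gave 56.6 and 58.3 (0.04, with a second probe at 0.06). Atp5c1, the central shaft, and Atp5d were at -0.07 and -0.02, and Atp5e gave 234 and 188 (-0.31). The signs of Atp5a1, Atp5c1 and Atp5d depended on the scale. Atp5o, the subunit that ties the head to the outer stalk, was lowest at 147 in wild type and 110 in CKO (-0.43), followed by Atp5h (-0.35 and -0.42 by 2 probes), Atp5j2 (-0.34) and Atp5l (-0.33). The membrane ring of subunit c is encoded by 3 genes whose mature proteins are the same. Atp5g1 gave 32.6 in wild type and 28.5 in CKO, Atp5g2 79.3 and 70.3, and Atp5g3 69.9 and 86.2, differences of -0.19, -0.17 and 0.30. Of the 3 only Atp5g3 kept its sign under all 6 scalings, ranging from 0.18 to 0.58.

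The 10 genes caught by the name rule that are not subunits had a median of -0.16 and lay lower in signal, at a median percentile of 65.9. The 7 Ndufaf genes, which help to build complex I, had a median of -0.24. Ndufaf3 was the lowest of them, at 2.95 in wild type and 2.12 in CKO (-0.48), then Ndufaf4 (-0.39), Ndufaf7 (-0.31) and Ndufaf6 (-0.24), all 4 below 0 under every scaling. Ndufaf1, Ndufaf2 and Ndufaf5 were within 0.07 of 0. Atp5s gave 5.36 in wild type and 3.55 in CKO, with a second probe in the same direction (-0.59 and -0.77). By its brightest probe it was 1.51-fold lower, the 1 member outside the complexes past 1.5-fold, where 14.7% of all measured genes were. That count was 0 with quantile normalization, the running median subtracted or the deposited table, and 2 with median scaling. Atp5sl was at 0.11 and the pseudogene Atp5c1-ps at -0.08, and the signal of a pseudogene's probe may come in part from RNA of its parent gene, which was not tested.

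Promoters of respiratory chain genes are known for binding sites of NRF-1 and of the ETS factor GABP. RefSeq promoter entries (GRCm38.p6, 250 bases before to 50 after the start) matched 73 of the 93 members. An NRF-1 type motif, GCGCA then any base then GCGC, on either strand, was in 19 of the 73 (26%), against 11.3% of 9139 measured genes and 5.19% of 27025 genes with an entry. The ETS core CCGGAA was in 26 (35.6%), against 30.5% of measured genes and 16.7% of all. CCAAT was in 32 (43.8%, against 43.2% and 41.1%) and TATAAA in 7 (9.59%, against 9.09% and 15.7%). None of the 4 motifs contains another, though neighbouring matches can share bases. Measured members with the NRF-1 type motif had a median difference of -0.24 (19 genes) and those without it -0.27 (52 genes). For CCGGAA the medians were -0.28 (26 genes) and -0.27 (45 genes), for CCAAT -0.31 (31 genes) and -0.26 (40 genes), and for TATAAA -0.50 (5 genes) and -0.25 (66 genes). None of these gaps was tested. The promoters of Cox6b2, which stood apart in CKO, and of its common partner Cox6b1 are shown as the 250 bases before the start, 5′ to 3′ on the gene's strand, with matches to CCGGAA and CCAAT in capitals on either strand. The Cox6b1 stretch lies at chr7:30626115-30626364 and the Cox6b2 stretch at chr7:4753095-4753344, both on the minus strand.
Cox6b1: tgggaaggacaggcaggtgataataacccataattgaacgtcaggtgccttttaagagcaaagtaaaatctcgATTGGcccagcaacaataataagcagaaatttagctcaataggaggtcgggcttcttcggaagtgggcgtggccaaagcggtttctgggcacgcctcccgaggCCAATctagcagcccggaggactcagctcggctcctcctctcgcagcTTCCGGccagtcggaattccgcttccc
Cox6b2: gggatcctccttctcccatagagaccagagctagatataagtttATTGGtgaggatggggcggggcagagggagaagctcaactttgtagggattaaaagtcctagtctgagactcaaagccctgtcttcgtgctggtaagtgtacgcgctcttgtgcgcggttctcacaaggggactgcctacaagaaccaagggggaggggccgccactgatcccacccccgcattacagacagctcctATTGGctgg
The Cox6b1 stretch holds 1 match to CCGGAA and 2 to CCAAT, and the Cox6b2 stretch 0 and 2. A match describes these letters and is no evidence of binding.

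Genes around the respiratory chain were taken as 9 lists. The mitochondrially encoded subunits on the array are 4: ATP6 of complex V (85.6 in wild type and 110 in CKO, 0.36), COX2 of complex IV (-0.20), CYTB of complex III (-0.04) and ND4 of complex I (-0.30). Their median was -0.12, and all 4 lay above 0 with quantile normalization. The file places the COX2 and ATP6 probes on chromosome 1, where the nucleus holds copies of mitochondrial DNA, so these cannot be told apart from such copies. Cycs, cytochrome c, was at -0.10 and its testis form Cyct at -0.32. Of 25 further assembly factors 19 lay below 0, against 60.7% of all measured genes. Their median was -0.20, and 0 passed 2-fold, with Foxred1, a complex I assembly factor, lowest (-0.69) and Timmdc1 highest (0.37). The 13 citric acid cycle genes had a median of -0.19, from Fh1, fumarase (-0.50), to Ogdh (0.20), and the 76 genes of the mitochondrial ribosome a median of -0.13, from Mrpl52 (-0.72) to Mrpl3 (0.60), with 0 past 2-fold in either list. With quantile normalization these 3 medians were -0.09, 0.00 and -0.00, so small group medians there depend on the scale as those of the members do. The 23 import genes, a list that also holds Timmdc1, had a median of 0.04, which was 0.19 with quantile normalization and -0.09 with median scaling, from Tomm40l (-0.86) to Timmdc1.

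The regulators of respiratory genes had a median of 0.03 over 10 measured genes, with 0 past 2-fold. Esrra, an orphan receptor that drives respiratory genes, gave 1.57 in wild type and 2.48 in CKO (0.66), and Tfb1m, which methylates mitochondrial ribosomal RNA, gave 4.74 and 3.03 (-0.65). The coactivator Ppargc1a was well above background in CKO alone, at 62.2 against 15.4 intensity units, at least 3.73-fold higher. Tfam, which packages mitochondrial DNA, was at 0.17, Nrf1 at 0.26 and Gabpa, the DNA-binding part of GABP, at -0.17. Of 11 genes of mitophagy and mitochondrial dynamics 10 lay below 0, against 60.7% of all measured genes. Their median was -0.30, or -0.20 with quantile normalization, and they ran from Park2, the ubiquitin ligase parkin (-0.97), to Mfn1 (0.09). Carriers, porins and uncoupling proteins had a median of 0.13 over 7 genes. Ucp2, a carrier of the uncoupling protein family that macrophages also express, gave 0.0965 in wild type and 0.359 in CKO, 3.72-fold higher, and Slc25a4, an adenine nucleotide carrier, was lowest at -0.31, while Ucp1, Ucp3 and Slc25a31 were not above background on either array.

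**Figure D5:**
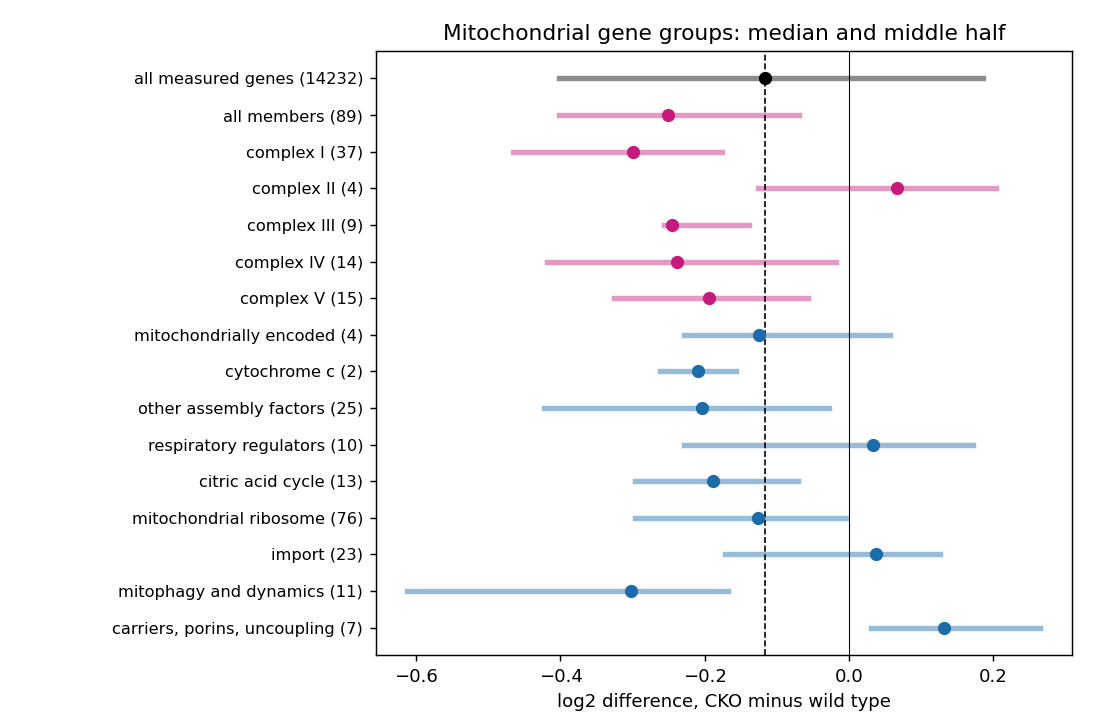
Median log2 difference (CKO minus wild type, points) and middle 50% of genes (bars) for all measured genes, the members, the 5 complexes and the 9 related lists, with the number of measured genes in brackets, on the 75th percentile scale. Complexes I, III, IV and V lie left of the dashed median of all genes (-0.12) and complex II right of it, while with quantile normalization complexes III, IV and V lie right of 0.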

How the data were processed

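Lens RNA was amplified, labelled with Cy3 and hybridised to 1 single-colour Agilent mouse array (design 014868) per genotype, per the labels' protocols and the file headers. The deposited scanner files hold spot intensity on a linear scale, extracted by the authors with Feature Extraction 10.7.3.1, per the file headers. That software had corrected them for background, not scaled them between arrays. Positions are in mm9, per the file headers. A deposited table of log2 values, whose scale and centring are not given in the sources used here, served as an alternative; its columns have a median of 4.87 each and follow the scanner signal (r = 0.9996 and 0.9998), and their difference runs the same way (r = 0.990).

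From the intensity, log2 was taken after scaling to the 75th percentile of non-control spots. Control spots and spots with outlier flags were left out, repeated spots were averaged, a probe counted as above background when over 50% of its spots were so marked, and an at-least fold set the bright signal against the dim one or, where that was higher, against the lowest signal above background on the dim array. Normexp (offset 50) used limma 3.58.1 in R 4.3.3, the rest Python 3.11.15 with numpy 2.4.6 and pandas 2.3.3. The procedure was tested on simulated data. Members and lists were chosen with earlier results of these data known. Atp5c1-ps, a pseudogene, was set apart from complex V, where its name would have put it. Named are members 2-fold apart or above background on 1 array, the 2 brightest and the 2 most different in each direction per complex, isoform pairs, members whose probes disagree, and the outermost gene of each list; others were chosen for their role after their values were seen. A gene that the rule would name is not reported here. RefSeq (GRCm38.p6) matched an accession of 92 members, 3 under another symbol. The number of arrays limits the precision.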

Additional observations from a re-analysis of the deposited data

How the results depend on the processing

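With 1 array per genotype, precision cannot be judged from replicates, and no replicate could be left out. No paired analysis was possible because each genotype has 1 array and no result comes from a test. Both arrays share slide and scan, so no such alternative was needed. Scaling to the array median moved the median of all measured genes to -0.24, and shifts below are relative to the median of all genes under each setting. The members' shift was -0.13 in the main setting, 0.0405 with the deposited table and 0.0433 with quantile normalization, both reversed, and -0.0035 with intensity-dependent centring, -0.10 for genes above the median level, -0.21 without a detection filter and -0.17 with normexp. Complex I, at -0.18, gave -0.0131 with the deposited table, -0.0077 with quantile normalization, -0.0649 with centring, -0.15 above the median level, -0.27 without a filter and -0.24 with normexp. Complex III, at -0.13, reversed to 0.10 with the deposited table, 0.0459 with centring and 0.10 with quantile normalization, and was -0.21 without a filter. Complex IV, at -0.12, reversed to 0.0881, 0.0569 and 0.0860 in the same order, and was -0.18 with normexp. Complex V, at -0.08, reversed to 0.0904, 0.0430 and 0.0972, and was -0.16 without a filter and -0.16 with normexp. The non-subunit genes, at -0.04, gave -0.12 above the median level and -0.13 without a filter. Complex II kept its sign in every setting listed here (0.10 to 0.23). Lower members numbered 0 at 2-fold and 7 at 1.5-fold. The latter count, taken under each scaling after the values were seen, was 1 with quantile normalization, centring and the deposited table, 8 with normexp and 16 with median scaling. Among all 14232 measured genes it was 1817, 1506, 1851, 1117 and 2978 in the same order. Higher members at 2-fold numbered 2 in every setting but the 2 looser detection filters (no filter, and above background on at least 1 array), which gave 3. Of 375 values of 42 named members under 9 alternatives, 291 moved by less than the SD between probes of a gene (0.17) and 84 by more, and Cox6a2 and Cox6b2 kept their sign. Medians under quantile normalization, centring and the deposited table remove a difference that depends on signal by their construction. The deposited table, with the same distribution in both columns, is no check apart from quantile normalization.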

Other observations

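Probes of 2 further genes carry respiratory chain symbols in the current RefSeq table but other names on the array, and so were outside the name rule. Both are small membrane subunits of complex V. Usmg5, now Atp5md, had a log2 difference of -0.36 and 2010107E04Rik, now Atp5mpl, of -0.29, both within the range of the 15 genes of complex V described above (-0.43 to 0.30).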
